A study of Mus musculus with 4 samples.

Results

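Lungs of mice that had been sensitized to ovalbumin (the main protein of egg white, here the allergen) and then challenged with it were compared with lungs of non-sensitized mice, all of them kept in particle-free air. The comparison rests on 2 of the 4 arrays of the study, the replicates 1 and 2 of challenged lung in particle-free air, and the other 2 arrays come from mice in UCP-containing air. All animals were BALB/cJ, an inbred strain, held in groups of 6, and the labels name no transgene or deletion, no age and no time between challenge and sampling. Each array carried cDNA of challenged lung beside cDNA of a reference pool made from 6 control animals in particle-free air. The dyes were swapped: Cy5 marked challenged lung on array 1 and the pool on array 2. RNA was prepared from individual organs, and 20 µg of total RNA went into each labelling.

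Array 1 held values for 19439 probes and array 2 for 19349, and 18828 probes had a value on both. Of these, 12991 carried a gene symbol and stood for 9371 genes, the level at which the genes below are described. Every value is a log2 ratio, read here as challenged lung over control pool, so that 1 stands for 2-fold higher and -1 for 2-fold lower, and values are given for array 1 first and array 2 second. The pool counts as 1 control sample, and the spread among control animals is not part of any value. Whether the arrays hold RNA of separate animals is not stated in the labels, so an SD or p-value measures only the spread between these arrays, which may be technical. Sensitization and challenge cannot be told apart, because the controls were not sensitized and no array carried lung that was sensitized but not challenged.

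The sign of the ratios is likely, not settled, and with the sign turned every "higher" below would read "lower" and the reverse, with the same sizes and counts. It rests on the usual order of Cy5 over Cy3 and on 7 genes that allergic mouse lungs are known to express strongly (Arg1, Ccl8, Chil3, Itln1, Retnla, Slc26a4 and Tff2), so the direction of these 7 is not a finding. A ratio also carries no level, so whether a gene was abundant or scarce in these lungs was not measured, and the labelled tissue could not be checked against the level of lung markers. In tissue RNA, fewer cells of a type and less RNA per cell cannot be told apart.

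Allergic airway inflammation is driven by type 2 helper T cells and innate lymphoid cells, whose cytokines interleukin-4 and interleukin-13 act through the transcription factor STAT6. Macrophages respond with a programme called alternative activation, airway epithelium turns to mucus production, and chemokines draw eosinophils, monocytes and T cells into the tissue. The acute phase response is a separate programme, in which inflammatory cytokines raise secreted defence and transport proteins, mainly in liver and in part in lung, with transcription factors of the C/EBP family among its regulators.

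The 2 arrays agreed in part. At least 1.5-fold (0.585 on the log2 scale) higher on both arrays were 353 of 9371 genes (3.77%), and 336 (3.59%) were at least 1.5-fold lower on both. A further 385 genes (4.11%) passed 1.5-fold on both arrays in opposite directions, as a difference that follows the dye does. Of these, 209 (2.23% of all genes) were brighter in Cy5 and 176 (1.88%) brighter in Cy3. With the sign of the ratios turned, the dyes would change places in these counts. On both arrays 2452 genes (26.2%) lay above 0 and 2761 (29.5%) below it. Counted as single probes, 708 of 18828 (3.76%) were at least 1.5-fold higher on both arrays and 875 (4.65%) lower, among them 207 (3.55%) and 289 (4.95%) of the 5837 probes without a gene symbol. At 3-fold the counts were 35 higher (0.373%), 21 lower (0.224%) and 28 opposite (0.299%). Across genes, which are not independent replicates, Pearson's r between the arrays was 0.12 and Spearman's rho 0.15, over 9371 genes that share the same control pool. No gene passed limma's moderated test with Benjamini-Hochberg adjustment, where the smallest adjusted p was 0.369, and 0 of 18828 probes passed (smallest adjusted p = 0.758). At an unadjusted p under 0.05 limma gave 327 higher (3.49%) and 324 lower genes (3.46%), 651 (6.95%) where 468.6 would be expected, and 510 higher (2.71%) and 651 lower probes (3.46%), 1161 (6.17%) where 941.4 would be. Below, "higher" and "lower" therefore describe both arrays and their spread, and a gene "at 1.5-fold" is one past 1.5-fold in the same direction on both. Each count of list members at 1.5-fold is to be read against the 3.77% and 3.59% of all genes, and each list median against the median of all genes, -0.02. The lists were written with earlier results of these data known. A share above that of all genes can therefore come from the choice of members, and it is a description and no test.

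**Figure D1:**
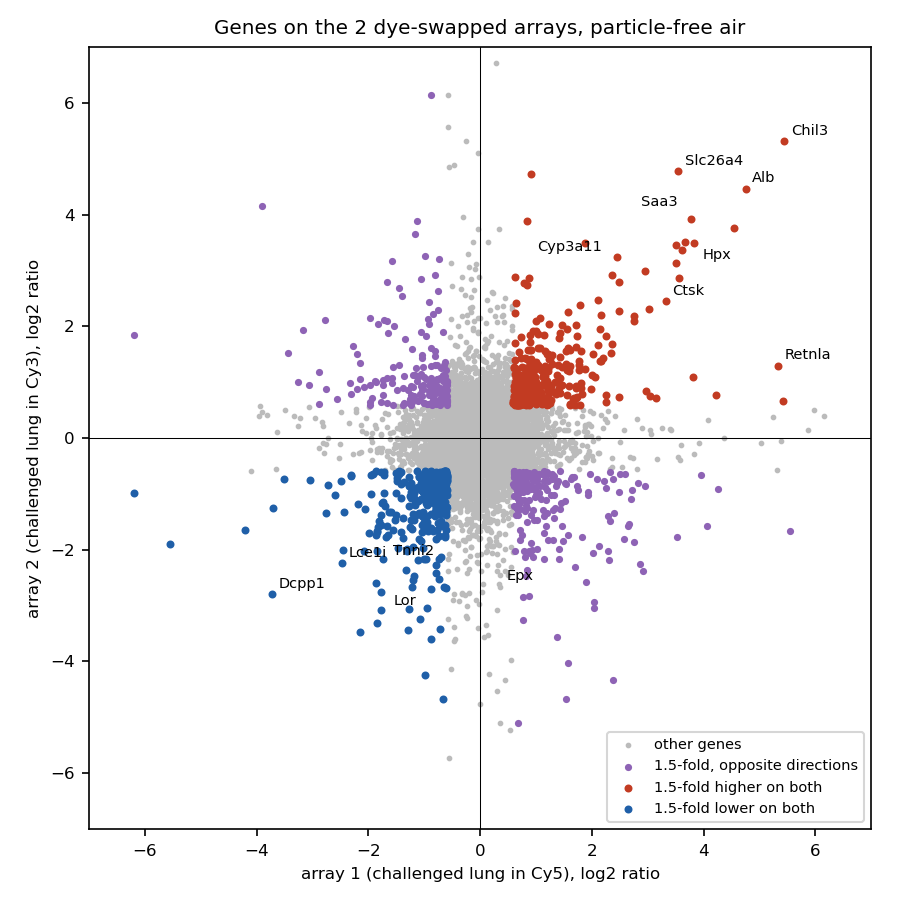
Log2 ratio on array 1 (horizontal axis, challenged lung in Cy5) against array 2 (vertical axis, challenged lung in Cy3), 1 point per gene, with genes at 1.5-fold on both arrays in red (higher) and blue (lower) and those at 1.5-fold in opposite directions in purple. The 31 genes beyond 7 on either axis are not drawn. Chil3, Alb, Saa3 and Slc26a4 lie far out on the upper right, and the purple points are about as many as the red or the blue.

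Chil3 lay farthest from 0 among genes ranked by the array nearer to 0. Chil3, a chitinase-like protein secreted by alternatively activated macrophages, had log2 ratios of 5.45 and 5.32 (mean 5.38 ± 0.09, SD, n = 2, 41.7-fold, limma adjusted p = 0.369). With the spread estimated over all 4 arrays of the study, its adjusted p by limma was 0.0316 and it was the only gene called. With the replicate number, which here is the dye orientation, as a block on the same 4 arrays that call ended (limma adjusted p = 0.297), and by probe 0 passed without the block (smallest limma adjusted p = 0.109). Chil4 has a very similar sequence and was not analysed here, so cross-hybridisation with it is untested.

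Of 12 measured genes of alternatively activated macrophages, 8 were at 1.5-fold higher and 0 lower, with a median of 1.5 (1.7 on array 1 and 1.0 on array 2). The list holds 4 of the genes used for the sign. Without them 8 genes were left, 4 of them at 1.5-fold higher, with a median of 0.86. Retnla, a secreted cysteine-rich protein of the same macrophages, lay at 5.34 and 1.30 (mean 3.32 ± 2.86, SD, n = 2), higher on both arrays but with a spread almost as wide as its mean. Ctsk, a cysteine protease of the lysosome, lay at 3.33 and 2.45 (2.89 ± 0.62). Ccl8, a chemokine that attracts type 2 T cells, lay at 2.37 and 2.91, and Ccl17 and Ccl22, both ligands of the T cell receptor CCR4, at 2.48 and 0.73 and at 1.42 and 0.80. Mrc1, the mannose receptor, was at 1.81 and 1.56, and Arg1, the arginine-degrading enzyme, at 1.59 and 1.21. The arrays agreed closely for Mrc1 and Arg1 and poorly for Retnla and Ccl17. Of the members not at 1.5-fold, Fn1 (0.69 and 0.50), Tgm2 (0.46 and 0.74) and Irf4 (0.80 and 0.15) were above 0 on both arrays, and Socs1, an inhibitor of cytokine signalling, had opposite signs (-1.20 and 0.72).

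Promoter sequence is shown for Retnla and Ccl17 because they are the members of this list at 1.5-fold whose 250 bases before the start hold TTC and GAA with any 4 bases between them, a form of site that STAT6 can bind. RefSeq promoters on GRCm38.p6 were held for 7 of the 8 genes. The windows run 5′ to 3′ on the gene's strand with 30 bases on each side of the match, which is in capitals. They are chr16:48842434-48842503 (plus strand) for Retnla and chr8:94810269-94810338 (plus strand) for Ccl17, with the match starting 145 and 154 bases before the start.
Retnla: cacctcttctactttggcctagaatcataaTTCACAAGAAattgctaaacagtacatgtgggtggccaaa
Ccl17: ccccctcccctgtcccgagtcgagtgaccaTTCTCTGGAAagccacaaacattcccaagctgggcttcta
This motif reads the same on both strands. These letters occurred in 5.86% of 27025 promoters, in 4.49% of the 7590 measured genes with a promoter, in 4.9% of 286 genes at 1.5-fold higher and in 4.76% of 273 at 1.5-fold lower. A match describes the letters and shows no binding.

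Of 17 other genes of macrophages, monocytes and dendritic cells, 8 were at 1.5-fold higher and 0 lower, with a median of 0.81. Lgals3, the galactose-binding lectin of macrophages, was at 2.15 and 1.95 (2.05 ± 0.14, SD, n = 2). Trem2, a lipid-sensing receptor, was at 2.97 and 0.84, Fcer1g, the shared signalling chain of Fc receptors, at 0.996 and 2.10, and Gpnmb, a glycoprotein of lipid-laden macrophages, at 1.55 and 1.22. The scavenger receptor Msr1 lay at 1.71 and 0.90. On the low side, Lyz2, the lysozyme of macrophages and alveolar type 2 cells, was at -0.69 and -0.41, and Marco, a scavenger receptor of resident alveolar macrophages, at -0.29 and -0.64, both below 0 on both arrays.

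Of 25 lysosome genes, 8 were at 1.5-fold higher and 1 lower (median 0.55). Ctss, the protease that trims the invariant chain of MHC class II, was at 1.78 and 2.38 (2.08 ± 0.42, SD, n = 2), and it lies beside Ctsk with no protein-coding gene between them in RefSeq's GRCm38.p6, the source of the neighbour relations given here. Psap, the precursor of sphingolipid activators, was at 1.16 and 1.55, the membrane protein Cd63 at 1.04 and 1.61, and the cathepsins Ctsz and Ctsb at 1.46 and 0.94 and at 1.08 and 0.72, with Ctsb averaged over 2 probes that disagree (probe means 0.24 and 1.56). Gla, which removes terminal galactose, was the lysosomal gene at 1.5-fold lower, at -1.19 and -2.46. Of 11 genes with a cathepsin symbol, a family chosen after its values were seen, 4 were at 1.5-fold higher and 0 lower, and Ctsh lay at -0.34 and -0.73.

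Among 16 chemokine ligands, 6 were at 1.5-fold higher and 0 lower, with a median of 0.37. Ccl9, a CC chemokine of rodents, was highest at 3.62 and 3.37 (3.49 ± 0.18, SD, n = 2, limma adjusted p = 0.369), and Ccl6, its direct neighbour on chromosome 11 with no protein-coding gene between, was at 2.10 and 2.48 (2.29 ± 0.26). Pf4, the platelet chemokine, lay at 0.94 and 0.99. Ccl12 lay at 1.98 and 0.21 and Ccl1, a ligand of CCR8, at -3.22 and 0.36, both with arrays far apart. The other ligands were not at 1.5-fold. Ccl5, Cxcl1, Cxcl12 and Cxcl14 lay at -0.23 and -0.05, 0.26 and 0.41, -0.34 and -0.25, and -0.05 and -0.15, and Ccl21a and Ccl27a at 0.52 and -0.75 and at -0.18 and -0.59. Cx3cl1 lay at -0.57 and -0.47 and Ccl28 at 0.46 and 0.36. Without Ccl8, which was used for the sign, 5 of 15 ligands were at 1.5-fold higher and the median was 0.33. Ccl8, Ccl17 and Ccl22 also stand in the list of alternatively activated macrophages, so the 2 counts are not separate. Without the members that another list also holds, the median of the ligands was 0.12.

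Of 11 cytokine and chemokine receptors, 1 was at 1.5-fold higher and 0 lower (median 0.05, with 0.23 on array 1 and 0.03 on array 2). That 1 was Csf2rb2, a beta chain of the interleukin-3 receptor, at 1.05 and 0.86, while the related Csf2rb lay at 0.25 and -0.14. Il18r1 had opposite signs (-2.11 and 0.12). Of 14 genes of type 2 T cells, cytokines and STAT signalling, 1 was higher and 1 lower, with a median of 0.00. Cish, an inhibitor of STAT5 signalling, was at 0.84 and 1.42. Tslp, an epithelial cytokine that primes dendritic cells for type 2 responses, was at -2.18 and -1.18. Gata3, the transcription factor of type 2 T cells, lay at 0.26 and -0.52, and Tgfb1 at 0.31 and -2.38. The interleukins Il4, Il5 and Il13 and the factor Stat6 were not analysed here.

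Granulocyte genes were uneven. Of 14 neutrophil genes, 6 were at 1.5-fold higher and 0 lower, with a median of 0.77. Chil1, a second chitinase-like protein, lay at 2.25 and 1.83, and Lcn2, which binds bacterial siderophores, at 2.12 and 1.66 as the average of 2 probes that disagree (probe means 0.37 and 3.41). The granule proteins Ngp and Camp were at 1.41 and 1.79 and at 1.60 and 1.57, and S100a8 at 0.94 and 1.20. S100a9, the partner of S100a8 in calprotectin, lay at 0.13 and 0.11, and the primary granule gene Mpo at 0.06 and -0.28. Ltf, Elane and Prtn3 also had opposite signs, at 0.30 and -0.15, -0.02 and 0.56, and 0.58 and -0.11. Mmp9 lay at 0.36 and 0.18. Lcn2 also stands in the list of the acute phase and complement, so the counts of these lists are not separate. Of 7 eosinophil genes, 2 were at 1.5-fold higher and 0 lower, with a median of 0.05. The granule proteins Prg2, Prg3 and Epx lay at 0.41 and -0.51, at 0.14 and 0.35 and at 0.36 and -2.66, none of them at 1.5-fold on both arrays. The members at 1.5-fold were Alox5ap (0.98 and 1.28), which presents arachidonic acid for leukotriene synthesis, and Csf2rb2, neither of them restricted to eosinophils. Of 5 mast cell and basophil genes 1 was at 1.5-fold higher, Hdc, the histamine-forming enzyme (0.70 and 0.61), beside Tpsb2 at 0.48 and 0.47, Cpa3 at 0.25 and -0.17, Mcpt8 at 0.37 and -0.07 and Gata2 at -0.55 and -0.77.

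B cell and plasma cell genes had 3 of 8 at 1.5-fold higher and 0 lower (median 0.40, with 0.65 on array 1 and 0.25 on array 2). Pou2af1, a coactivator of immunoglobulin genes, was at 1.88 and 1.24, Cd79b, the signalling chain of the B cell receptor, at 1.24 and 1.42, and Xbp1, the transcription factor of plasma cells, at 0.74 and 0.62. Cd22 (0.57 and 0.19), Derl3 (0.54 and 0.31) and Pim2 (0.20 and 0.10) were above 0 on both arrays, Sdc1, a plasma cell surface protein, lay at 0.11 and -0.07, and Blnk at 1.11 and -0.39. Of 13 T cell and natural killer cell genes none was at 1.5-fold in either direction, with a median of -0.15. Cd3d lay at -0.11 and 0.14, Cd3g at -0.11 and -0.26 and Cd8a at -0.26 and -0.29.

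Antigen presentation genes had 5 of 16 at 1.5-fold higher and 1 lower (median 0.61, with 0.70 on array 1 and 0.38 on array 2). The class II chain H2-Ab1 was at 0.98 and 1.09, the invariant chain Cd74 at 1.32 and 0.83 and the maturation marker Cd83 of dendritic cells at 0.90 and 1.85. H2-Eb1, another class II chain, had opposite signs (1.675 and -0.69). H2-DMb1 and H2-Oa, at 0.40 and 0.35 and at 0.325 and 0.19, were not at 1.5-fold. Tap1, the peptide transporter of the class I pathway, was lower at -0.75 and -0.95. Cd86 lay at -0.82 and 2.92, so its mean describes neither array. Interferon response genes had 2 of 19 at 1.5-fold higher and 1 lower (median 0.26, with 0.44 on array 1 and 0.07 on array 2), with Mx2, an antiviral GTPase, at 1.40 and 1.31, Irf8 at 1.01 and 0.81 and Ly6e at -0.62 and -1.24 as the average of 2 probes that disagree (probe means -1.94 and 0.07).

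Goblet cell and mucus genes had 3 of 9 at 1.5-fold higher and 1 lower (median 0.41, with 0.69 on array 1 and 0.84 on array 2). Slc26a4, an anion exchanger of airway epithelium, was at 3.55 and 4.77 (4.16 ± 0.87, SD, n = 2, limma adjusted p = 0.595), Tff2, a mucosal trefoil peptide, at 1.54 and 1.33, and Foxa3, a transcription factor of goblet cells, at 0.69 and 0.87. Itln1, an intestinal and airway lectin, had opposite signs at -0.91 and 0.84. Bpifa1, a defence protein of upper airway secretions, was lower at -1.18 and -1.46. Spdef and Creb3l1 lay at 0.69 and 0.13 and at 0.30 and 0.88, Galnt12 at 0.90 and -0.21 and Cyp2s1 at -0.21 and -0.48. Without the 3 genes used for the sign, 1 of 6 was higher and 1 lower.

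Club and ciliated cell genes had 0 of 18 at 1.5-fold higher, 4 lower and a median of -0.31 (-0.52 on array 1 and -0.36 on array 2). The club cell enzymes Cyp2f2 and Cyp4b1, which oxidise foreign compounds, were at -0.87 and -1.61 and at -1.17 and -1.16, Sec14l3 at -1.03 and -1.40 and the glutathione transferase Gstm1 at -0.73 and -1.14. Over the whole list, 9 members lay below 0 on both arrays, 3 above it, and 6 had opposite signs. Those above 0 were Scgb3a1 (0.36 and 0.27), Aldh1a7 (0.12 and 0.79) and Hp (0.49 and 0.33). Gsta3 lay at -0.23 and 1.24. The ciliated cell genes differed among themselves and between arrays. Foxj1 lay at 0.32 and -0.30, Tekt1 at 0.01 and -0.18, Tppp3 at -0.26 and -0.74 and Spag6l at -1.39 and -0.42, while Dnah5 (-0.94 and 0.49) and Dnali1 (1.20 and -0.93) had opposite signs. Of 13 alveolar type 2 and surfactant genes, 1 was at 1.5-fold higher, Cd74, and 1 lower, Fabp5 (-0.58 and -0.75), with a median of -0.30 (-0.06 on array 1 and -0.29 on array 2). Sftpb lay at -0.87 and -0.53 and Sftpc at -0.04 and 0.15. Endothelial and alveolar type 1 genes had 2 of 17 higher and 4 lower (median -0.02). Lower were the guidance factor Sema3c (-1.53 and -1.47), the fenestral protein Plvap (-0.93 and -1.66), the water channel Aqp1 (-0.97 and -1.16) and the VEGF receptor Flt1 (-0.99 and -0.86). Higher were Pdpn (1.08 and 1.21) and Cdh5 (1.09 and 0.70), while Pecam1 (-0.05 and 0.01) and Ager (0.36 and -0.12) lay near 0.

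Smooth muscle and pericyte genes had 0 of 16 at 1.5-fold higher and 1 lower, Myh11, the smooth muscle myosin, at -0.96 and -0.93 (list median -0.12, with -0.14 on array 1 and -0.31 on array 2). Extracellular matrix and protease genes had 4 of 41 higher and 1 lower (median 0.17). Col3a1, fibrillar collagen III, was at 1.07 and 2.15, Col6a2 at 0.90 and 1.33, the microfibril protein Mfap4 at 1.26 and 0.93 and the membrane protease Adam8 at 1.16 and 0.99. Dcn, the collagen-binding proteoglycan decorin, was lower at -0.84 and -0.67. Col1a1 lay at 0.60 and -0.25 and Fn1 at 0.69 and 0.50.

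Genes of the acute phase and complement had 10 of 26 members at 1.5-fold higher and 0 lower, with a median of 0.82 (0.87 on array 1 and 0.60 on array 2). Saa3, a serum amyloid A made in inflamed tissue as well as in liver, was at 3.77 and 3.93 (3.85 ± 0.11, SD, n = 2, 14.4-fold, limma adjusted p = 0.369), and Saa1, the circulating form, at 3.02 and 2.31, with 1 protein-coding gene between them on chromosome 7. Hpx, the heme carrier hemopexin, lay at 3.83 and 3.50 (3.66 ± 0.23) and Fgb, a chain of fibrinogen, at 3.67 and 3.52 (3.59 ± 0.11). The complement genes Cfb, C1qa and C1qc were at 1.74 and 0.73, at 1.72 and 0.93 and at 1.10 and 0.70. C1qb, the chain that assembles with these, lay at -0.06 and -0.06. The other fibrinogen chains did not match Fgb, with Fga at 0.25 and -0.20 and Fgg at 0.12 and 2.47. Hp, the hemoglobin carrier haptoglobin, lay at 0.49 and 0.33. C1qa, C1qb and C1qc also stand in the list of macrophages, monocytes and dendritic cells, and Lcn2 in that of neutrophils. The counts of these lists are therefore not separate.

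Of 48 measured plasma proteins that the liver makes, 18 (37.5%) were at 1.5-fold higher and 0 lower, with a median of 0.68 (0.81 on array 1 and 0.56 on array 2). Above 0 on both arrays were 32, below 0 were 2, and 14 had opposite signs. They share 7 genes with the acute phase list, and without those 16 of 41 were at 1.5-fold higher. Alb, serum albumin, was at 4.75 and 4.46 (4.61 ± 0.20, SD, n = 2, 24.4-fold, limma adjusted p = 0.369). The antiproteases Serpina1b, Serpina1d and Serpina1e, clustered copies of the alpha-1-antitrypsin gene, were at 3.56 and 2.86, 3.51 and 3.14, and 3.51 and 3.45. Apoh, a phospholipid-binding plasma protein, was at 2.94 and 2.99 (2.97 ± 0.03) and Serpinc1, antithrombin, at 2.17 and 2.20. The clotting factors F7 and F10, adjacent on chromosome 8, were at 1.47 and 2.02 and at 1.43 and 1.88, and F2, prothrombin, at 1.60 and 1.29. Ttr, the thyroid hormone carrier, lay at 1.72 and 2.02 as the average of 2 probes that disagree (probe means -0.15 and 3.89), and Rbp4, its retinol-carrying partner, at 1.06 and 1.28. The arrays agreed closely on the leading members and less on the apolipoproteins, where Apoa2 lay at 3.41 and 0.16 and Apoa1 at 2.71 and -0.92. Vtn, vitronectin, lay at 1.58 and -4.02.

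Of 25 genes on the list of hepatocyte enzymes and transporters, 7 (28%) were at 1.5-fold higher and 0 lower. The list also holds the transcription factors Hnf4a and Nr1h4, and its median was 0.24 (0.37 on array 1 and 0.13 on array 2). Above 0 on both arrays were 13, below 0 were 4, and 8 had opposite signs. Cyp3a11, a drug-oxidising cytochrome P450, was at 2.45 and 3.24 (2.85 ± 0.56, SD, n = 2), Fabp1, the liver fatty acid carrier, at 2.48 and 2.28 (2.38 ± 0.14), and Mat1a, the liver form of the enzyme that makes S-adenosylmethionine, at 1.76 and 1.38. Cps1, the entry enzyme of the urea cycle, lay at 0.42 and 0.06, Ass1 at 0.21 and -0.74 and the liver transcription factor Hnf4a at 0.39 and -0.19. Of 24 genes with a cytochrome P450 symbol, a family chosen after its values were seen, 4 were higher and 2 lower, the latter being the club cell genes Cyp2f2 and Cyp4b1. Whether liver RNA in the challenged sample had a part in these values was not tested.

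Promoter windows are shown for the leading acute phase and liver genes because their 250 bases before the start hold the letters TTGCNNAA, a form of site that C/EBP factors bind, on either strand. Each window has 30 bases on each side of the match, which is in capitals, and runs 5′ to 3′ on the gene's strand in RefSeq's GRCm38.p6 table. The windows are chr7:46715738-46715805 (minus strand) for Saa3, chr7:46743125-46743192 (minus) for Saa1, chr5:90460746-90460813 (plus) for Alb, chr3:83049906-83049973 (minus) for Fgb, chr7:105600279-105600346 (minus) for Hpx, chr12:103738313-103738380 (minus) for Serpina1b, chr12:103773745-103773812 (minus) for Serpina1d and chr12:103957071-103957138 (minus) for Serpina1e.
Saa3: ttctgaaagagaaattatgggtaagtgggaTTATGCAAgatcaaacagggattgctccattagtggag
Saa1: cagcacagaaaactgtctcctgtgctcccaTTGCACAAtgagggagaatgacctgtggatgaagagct
Alb: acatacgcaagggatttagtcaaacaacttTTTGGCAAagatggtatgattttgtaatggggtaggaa
Fgb: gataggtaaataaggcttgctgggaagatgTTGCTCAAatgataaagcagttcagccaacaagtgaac
Hpx: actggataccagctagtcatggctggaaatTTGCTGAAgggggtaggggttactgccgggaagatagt
Serpina1b: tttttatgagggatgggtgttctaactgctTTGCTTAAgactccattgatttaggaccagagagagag
Serpina1d: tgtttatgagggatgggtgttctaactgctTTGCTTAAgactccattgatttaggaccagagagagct
Serpina1e: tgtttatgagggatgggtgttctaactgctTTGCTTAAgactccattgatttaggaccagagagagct
The matches start 99 (Saa3), 182 (Saa1), 94 (Alb), 80 (Fgb), 200 (Hpx), 161 (Serpina1b), 149 (Serpina1d) and 211 (Serpina1e) bases before the start. The windows of Serpina1d and Serpina1e are identical over 68 bases, and that of Serpina1b matches each of them at 65 of 68, so these members are not independent examples, and cross-hybridisation among the copies was not tested. The letters occurred in 9.55% of 27025 promoters, in 7.91% of 7590 measured genes with a promoter, in 13.3% of 286 genes at 1.5-fold higher and in 8.42% of 273 at 1.5-fold lower. Among the higher members with a promoter in the table they occurred in 6 of 16 liver-made plasma protein genes and in 5 of 6 acute phase genes, Fgb and Hpx counting in both lists. Over all measured members with a promoter, higher or not, they occurred in 11 of 40 (27.5%) and 9 of 17 (52.9%). Both motifs were chosen for display after matches had been seen. Other letters were searched on both strands in the same 16 genes. The STAT6 form given above was in 3 of them (Apoh, Rbp4 and Selenop, 18.8%), beside 5.86% of all promoters. A form of HNF1 site (GTTAAT, any base, ATT) had 0 matches, beside 0.411% of all promoters. Its longer forms (GTTAAT, any base, ATT, any base, A, and GTTAAT, any 2 bases, TTAA) overlap it in part and had 0 too (0.17% and 0.137% of all). A form of NF-kappaB site (GGGA, any base, TT, any base, CC) had 0 (0.94% of all) and a form of MEF2 site (CTA and TAG with any 4 bases between) had 0 (3.23% of all). The E-box CANNTG was in 12 of 16 (66% of all) and TATAAA in 1 of 16 (13% of all). No match says only that these letters are not in this window.

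**Figure D2:**
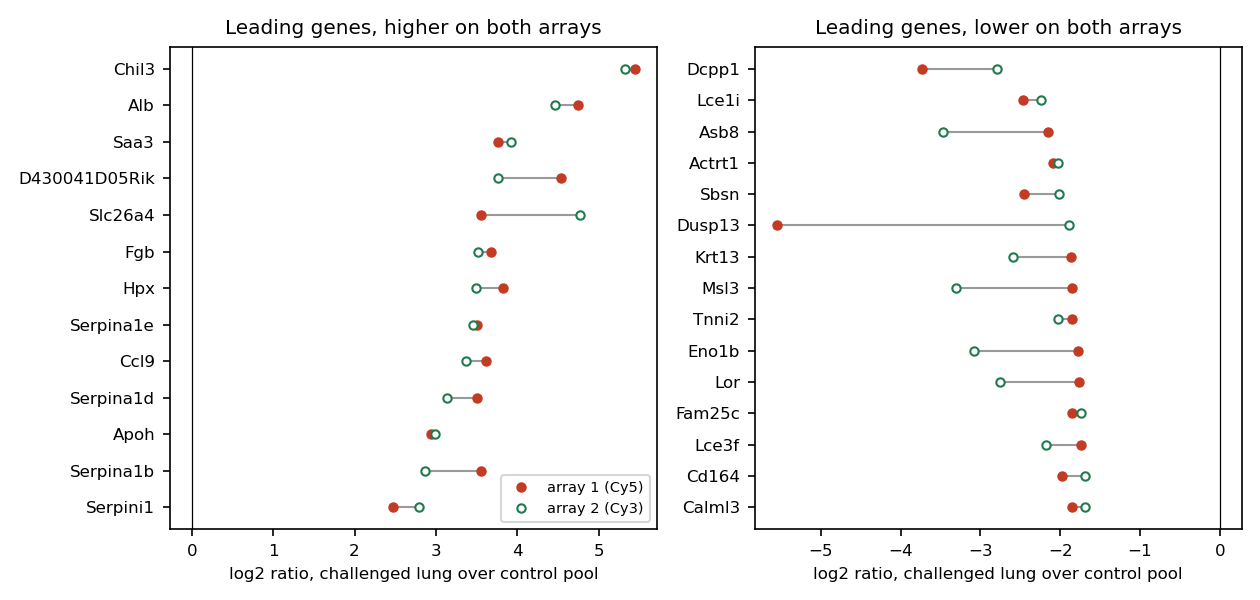
Log2 ratio of challenged lung over control pool on array 1 (filled) and array 2 (open) for the genes that lay farthest from 0 on the array nearer to 0, 13 higher in the left panel and 15 lower in the right. Dgke and Umps, whose array 1 value is a capped ratio, are left out of the left panel; the leading higher genes are mostly plasma proteins and macrophage products, with Chil3 at 5.45 and 5.32.

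Of 16 squamous epithelium genes, 8 (50%) were at 1.5-fold lower and 0 higher, with a median of -0.69. Lor, loricrin of the cornified envelope, was at -1.77 and -2.76 (-2.26 ± 0.70, SD, n = 2), Sbsn, suprabasin, at -2.46 and -2.01 (-2.24 ± 0.31), and Krt13, a keratin of stratified mucosa, at -1.87 and -2.59 (-2.23 ± 0.51). The basal keratins Krt5 and Krt14 were at -1.22 and -1.62 and at -0.77 and -1.65, and Sprr1a, a cornified envelope precursor, at -1.02 and -1.97. Krt1 and Krt10, the suprabasal keratins of skin, had opposite signs on the arrays, at 1.02 and -1.46 and at -0.86 and 0.65. So did Krt15, Krt16 and Krt17, at -0.12 and 0.71, 0.42 and -0.12, and 0.06 and -0.04. Pkp1 lay above 0 on both arrays (0.72 and 0.405). Of 20 genes with a keratin symbol, a family chosen after its values were seen, 5 were at 1.5-fold lower and 0 higher. Their median was -0.13, and 9 had opposite signs. All 5 measured genes of the late cornified envelope family, chosen after its values were seen, lay below 0 on both arrays and 4 of them at 1.5-fold, led by Lce1i at -2.47 and -2.24 (-2.35 ± 0.17, limma adjusted p = 0.609) and Lce3f at -1.74 and -2.17. Spink5, a protease inhibitor of the epidermis that was also picked after its values were seen, lay at -1.66 and -1.58. Dcpp1, a secreted protein of glandular tissue, was lowest among genes ranked by the array nearer to 0, at -3.73 and -2.79 (-3.26 ± 0.66, 9.58-fold lower, limma adjusted p = 0.609).

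Fast skeletal muscle genes had 9 of 17 members (52.9%) at 1.5-fold lower and 0 higher, with a median of -1.06 (-0.79 on array 1 and -1.61 on array 2). Tnni2 and Tnnc2, troponins of fast fibres, were at -1.85 and -2.02 (-1.94 ± 0.12, SD, n = 2) and at -1.85 and -1.67. The fast myosin heavy chains Myh1 and Myh4, adjacent on chromosome 11, were at -1.68 and -1.77 and at -1.30 and -1.98, Myoz1, a Z-disc protein, at -1.65 and -1.73, and Atp2a1, the calcium pump of fast fibres, at -1.21 and -2.53. Myl1, Casq1 and Pygm were the other members at 1.5-fold lower. Mylpf, a light chain of the same fibres, lay at 0.24 and 0.23, above 0 on both arrays. Of 9 myosin heavy chains, a family chosen after its values were seen, 7 were at 1.5-fold lower. They included the non-muscle forms Myh10 (-1.42 and -1.69) and Myh14 (-0.79 and -1.32), while Myh9 lay at 0.48 and -0.25.

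Of 30 heart muscle genes, 1 was at 1.5-fold higher and 1 lower, with a median of -0.03. Above 0 on both arrays were 6, below 0 were 12, and 12 had opposite signs. Myl2, the ventricular light chain, was at 2.03 and 1.5, and Myl4, the atrial light chain, at -0.65 and -0.88. Not at 1.5-fold but below 0 on both arrays were Myom2 (-0.43 and -1.51), Tcap (-0.52 and -1.10) and Myh7 (-0.57 and -0.99). Nppa, the atrial hormone precursor, lay at 0.38 and -0.17.

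Of 22 adipose genes, 10 (45.5%) were at 1.5-fold lower and 0 higher, with a median of -0.68. Gpd1, which makes glycerol phosphate for triglycerides, was at -1.83 and -1.59 (-1.71 ± 0.17, SD, n = 2, probe means -2.23 and -1.19), Car3, a carbonic anhydrase abundant in fat and muscle, at -1.56 and -1.65 (-1.60 ± 0.06), Agpat2, an acyltransferase of triglyceride synthesis, at -1.72 and -0.99, and Plin1, the coat protein of lipid droplets, at -0.73 and -1.76. The brown fat genes Cidea, Cox8b and Ucp1 were at -1.36 and -0.78, -0.80 and -1.19, and -0.60 and -0.62. Cox7a1 and Ppargc1a, which brown fat also expresses, had opposite signs, at -0.19 and 0.25 and at 0.73 and -0.09. Adipoq, the adipocyte hormone adiponectin, lay at 0.05 and -0.97, and Lpl at -0.19 and -0.37.

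The thymus list had 0 of 11 at 1.5-fold in either direction (median -0.21), with Prss16 at -0.40 and -0.67. Red cell genes had 1 of 10 higher and 2 lower (median -0.04): Car1 at 1.58 and 2.26, Slc4a1, the anion exchanger of red cells, at -1.24 and -1.03, and Hba-a1, an alpha globin, at -0.72 and -0.88. In all, lists of liver, heart, skeletal muscle, fat, thymus, squamous epithelium and red cells held 177 genes, of which 27 (15.3%) were at 1.5-fold higher and 30 (16.9%) lower. The other 9194 genes had 326 (3.55%) higher and 306 (3.33%) lower. Because these lists were written with earlier results of these data known, the contrast is no test. A part of neighbouring tissue in either sample was not tested.

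**Figure D3:**
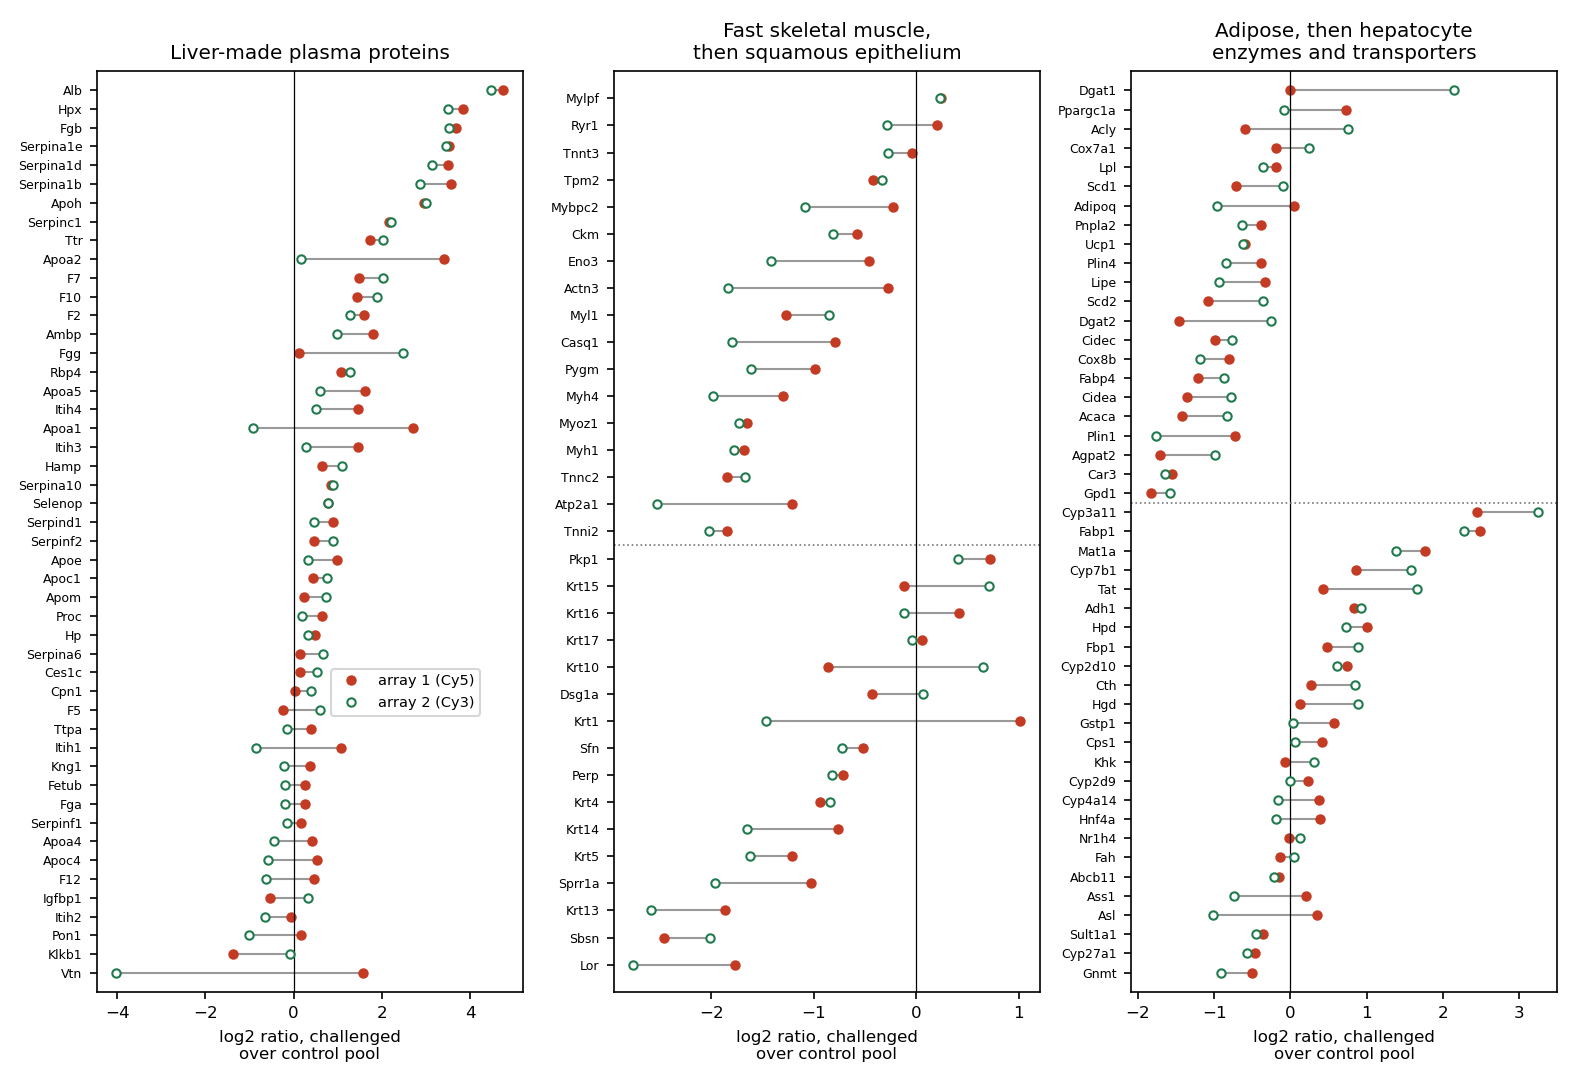
Log2 ratio of challenged lung over control pool on array 1 (filled) and array 2 (open) for each measured member of the lists of liver-made plasma proteins (left), fast skeletal muscle and squamous epithelium (middle) and adipose and hepatocyte genes (right), with a dotted line between lists that share a panel. Alb, Hpx and Fgb lie beyond 3 on both arrays, and Tnni2, Lor and Gpd1 beyond -1.5 on both.

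Of 43 cell cycle genes, 13 (30.2%) were at 1.5-fold higher and 0 lower, with a median of 0.47. Above 0 on both arrays were 27, below 0 were 2, and 14 had opposite signs. Cks1b, a partner of cyclin-dependent kinases, was at 1.57 and 1.61 (1.59 ± 0.03, SD, n = 2), Uhrf1, which maintains DNA methylation at replication, at 1.60 and 1.25, and Cdc20, an activator of the anaphase-promoting complex, at 1.03 and 1.30. Mcm3 and Mcm6, subunits of the replicative helicase, were at 0.72 and 0.90 and at 0.69 and 1.55, whereas Mcm5 and Mcm7 had opposite signs (1.13 and -1.29, and 0.30 and -1.13). Mki67, the proliferation marker, lay at 0.46 and 0.32, and Top2a at 0.66 and 0.58. On the low side, Kif20a lay at -2.14 and -0.26 as the average of 2 probes that disagree (probe means -2.275 and -0.116). Pcna had opposite signs (0.30 and -1.89). Of 13 tubulins, a family chosen after its values were seen, 8 were at 1.5-fold higher and 0 lower (median 0.80), from Tuba1b at 1.17 and 1.24 and Tubb6 at 1.13 and 1.11 to Tubb2a at 0.71 and 0.59, while the beta forms Tubb4a and Tubb4b lay below 0 on both arrays. Tubulin coding sequences are alike, and cross-hybridisation among them was not tested.

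Genes of protein folding and secretion had 6 of 30 (20%) at 1.5-fold higher and 0 lower (median 0.46). Sec61b and Sec61a1, subunits of the channel into the endoplasmic reticulum, were at 0.90 and 1.72 and at 1.10 and 0.64, Creld2 at 0.90 and 1.21, the disulfide isomerase Pdia6 at 0.97 and 1.02 and the chaperone Hsp90b1 at 0.66 and 1.24. Hspa5, the main chaperone of that compartment, lay at 0.58 and 0.94, just short of 1.5-fold on array 1, and Ddit3, a marker of stress-induced death signalling, at -0.26 and 0.19.

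Antioxidant and glutathione genes had 2 of 28 at 1.5-fold higher and 1 lower (median 0.19, with 0.10 on array 1 and 0.06 on array 2), with Prdx4, a peroxiredoxin of the secretory pathway, at 1.22 and 1.26, Gpx1, a glutathione peroxidase, at 1.21 and 1.19, and Gstm1 lower. Immediate early and heat shock genes had 0 of 24 higher and 1 lower (median 0.00), namely Jun at -0.98 and -0.96. Circadian clock genes had 1 of 10 higher, Bhlhe40 at 0.61 and 0.74, and 0 lower (median 0.07). Cytosolic ribosomal protein symbols had 4 of 63 higher and 1 lower (median 0.22, with 0.29 on array 1 and 0.12 on array 2), with Rps9 at 0.93 and 0.92, and Rpl36a at -1.06 and -0.93. The symbol rule also takes in 4 S6 kinase genes, and without them the median was 0.24 over 59 genes. Mitochondrial ribosomal proteins had 1 of 63 higher and 1 lower (median 0.17), with Mrps12 at 0.80 and 0.89. The housekeeping list had 1 of 10 higher, Rpl13a at 0.75 and 0.61, and 0 lower, with a median of 0.31 (0.25 on array 1 and 0.15 on array 2, and 0.14 without the members that another list also holds). Tbp lay farthest from 0 by its mean, with arrays far apart (0.31 and 2.08), and Eif4a2 and Ppia lay at -0.75 and -0.45 and at 0.42 and 0.54. Actb lay at 0.21 and 0.44, Gapdh at 0.18 and -0.24 and Eef1a1 at -0.47 and -0.17.

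**Figure D4:**
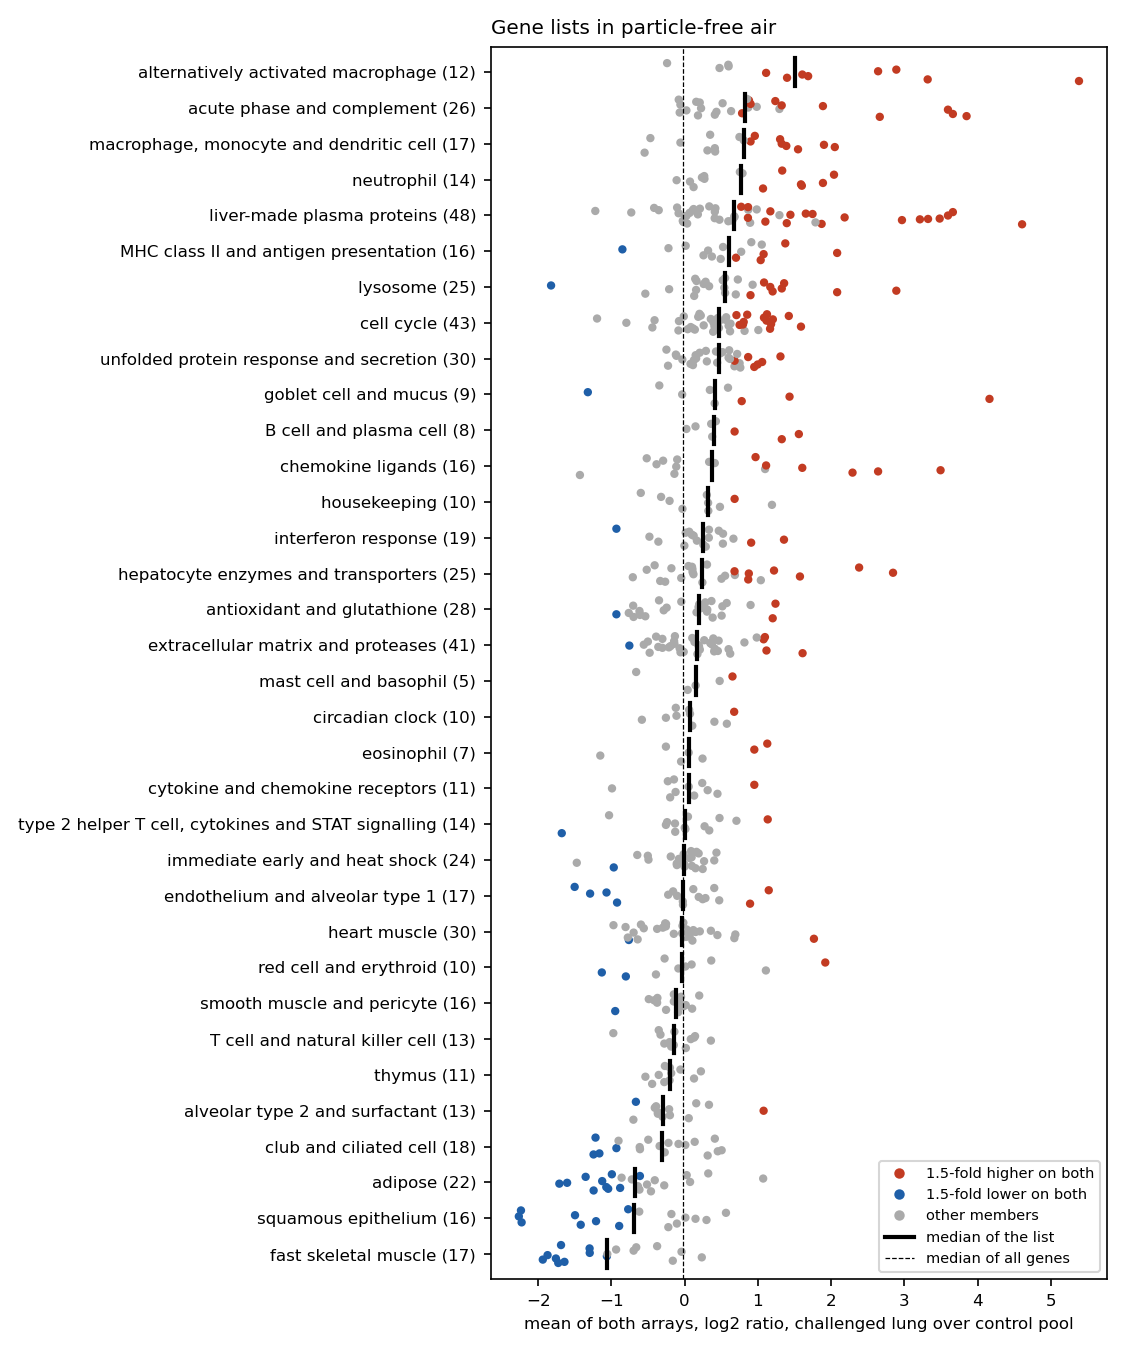
Mean log2 ratio over both arrays (horizontal axis) for each measured member of 34 gene lists (vertical axis, number measured in brackets), with members at 1.5-fold on both arrays in red (higher) or blue (lower) and the list median as a black bar. The alternatively activated macrophage list has the highest median, 1.5, and fast skeletal muscle the lowest, -1.06; the dashed line is the median of all genes, -0.02.

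Some leading genes belong to none of the lists. D430041D05Rik was at 4.54 and 3.76 (4.15 ± 0.55, SD, n = 2, limma adjusted p = 0.397). Serpini1, the serpin neuroserpin of nerve tissue, was at 2.48 and 2.79. Dgke, a diacylglycerol kinase, and Umps, the last enzyme of uridine monophosphate synthesis, stood at the capped ratio of 16.56 on array 1 and at 4.97 and 4.15 on array 2, so their fold has no measured size. Among the lower genes were Actrt1, an actin-related protein of sperm, at -2.09 and -2.03, Eno1b, a near-identical copy of the enolase Eno1, at -1.78 and -3.08, Calml3, a calmodulin-like protein of epithelium, at -1.85 and -1.69, and Cd164, a sialomucin, at -1.98 and -1.69. Asb8 was at -2.15 and -3.47, Msl3, a chromatin protein, at -1.85 and -3.31, and Fam25c at -1.86 and -1.74. Dusp13, a phosphatase of muscle and testis, lay at -5.55 and -1.90, lower on both arrays but far apart. Cebpd, a C/EBP factor of the acute phase response, and Cpa1, a pancreatic carboxypeptidase, were picked after their values were seen, at 1.15 and 1.11 and at 1.72 and 1.62. Cebpa, another C/EBP factor, which is on the alveolar type 2 list, lay below 0 on both arrays, at -0.05 and -0.38.

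On some genes the arrays differed widely. Serpina1f, a member of the alpha-1-antitrypsin cluster, lay at -3.90 and 4.15 while its relatives Serpina1b, Serpina1d and Serpina1e lay at 2.86 or above on both arrays. Lhx2, Spa17 and Gng4 lay at -6.20 and 1.84, -0.88 and 6.14, and -0.58 and 6.14, and 4931414P19Rik at 0.28 and 6.72. In the other direction the widest gaps were all at a capped ratio: Lypd4 (16.56 and -1.03) and Ikzf5 (16.56 and -0.12) on array 1, and Pclaf (0.81 and -16.05), Mphosph10 (0.40 and -16.05) and Prss58 (0.12 and -16.05) on array 2. Off the cap, Stmn4 at 5.55 and -1.66 and Hps1 at 2.38 and -4.33 differed most, a group added after the values were seen.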

How the data were processed

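Total RNA of lung was measured on dual-colour arrays, per the labels' protocols. Values deposited by the authors are log2 ratios between dyes. How they were scanned and normalized is not given in the sources used here. Each array's largest value equals a log2 ratio with a cap of 100000 and an added constant (-0.05 and 0.56), reached by 25 probes on array 1 and 44 on array 2. The cap is positive on array 1 and negative on array 2, so both arrays run the same way. With the constant removed, all 381 and 238 ratios under 0.3 were whole steps of a ratio with 3 decimals, within 0.0011 on the log2 scale. Array medians were -0.01 and -0.07. Values were used as deposited, with no filter on dim probes, since no brightness was used here. Precision is limited by having 2 arrays.

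Of 20205 probes, 13852 had 1 gene symbol in the platform annotation, 0 had several and 6353 had none, and 13849 symbols were found by Entrez identifier. Probes of a gene were averaged (2708 genes had several, which differed by over 1 for 546, among them Fn1, Col1a1, Ass1, Prg2 and Tubb4b). A further 1377 probes missing on either array were left out.

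The mean ratio was tested against 0 with limma 3.58.1 (R 4.3.3, intercept, eBayes, two-sided, Benjamini-Hochberg over all genes or probes, threshold 0.05), after tests on simulated data. Members and lists were chosen with earlier results of these data known. Named genes were the 15 per direction farthest from 0 on the array nearer to 0, up to 4 members of each list by absolute mean, the 5 per direction on which the arrays differ most, and all members needed for a full account of small lists. Members of larger lists named beyond these were chosen after their values were seen. Alternatives covered fold, centring, scaling, averaging of probes, capped values, the pooled spread of all 4 arrays and a replicate block. Promoters came from RefSeq's GRCm38.p6 table and were searched over 250 bases.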

Additional observations from a re-analysis of the deposited data

How the results depend on the processing

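limma called 0 probes and 0 genes in the alternatives that kept both arrays, except that 1 gene (Chil3) passed with the spread pooled over all 4 arrays. Replicate numbers mark the dye orientation and pair no animals; with the replicate block over all 4 arrays, 0 genes passed (smallest adjusted p = 0.297). Leaving out an array left 1 array with a spread assumed like that of the UCP arrays, and the calls ran from 12 (without array 2) to 29 (without array 1) probes and from 6 (without array 2) to 18 (without array 1) genes, Umps among them at 16.56 without array 2. Genes higher on both arrays numbered 97 at 2-fold, 35 at 3-fold and 708 as single probes with unnamed ones, and on 1 array alone 1230 to 1319. Genes lower numbered 82, 21 and 875, and on 1 array alone 1173 to 1531. With each array centred on its median, 404 were higher and 293 lower, and without the genes on lists of other tissues (added after seeing the data) 326 and 306. Over the 2 single arrays, genes that turned sign among the 147 of 153 named by rule that could be fitted so ran from -2.11 to 0.12 (Il18r1), -2.38 to 0.31 (Tgfb1), -0.067 to 0.37 (Mcpt8), -2.82 to 0.87 (Nkg7), -0.15 to 0.87 (Cd2), -0.82 to 2.92 (Cd86), -0.51 to 2.14 (Sptb, where a further probe enters without array 1, and 2.73 on the probes used elsewhere), -1.30 to 0.30 (Hsp90aa1), -0.13 to 0.94 (Cry1), -2.96 to 0.36 (Rpl36al) and -0.36 to 2.73 (Mrpl45). Of the 6 that could not be fitted, Epx (0.36 and -2.66) and Per3 (-1.39 and 2.55) had opposite signs on the arrays. The cause was not tested. The median of a list had opposite signs on arrays 1 and 2 for type 2 T cell genes (0.29 and -0.01), eosinophil genes (0.36 and -0.02), mast cell genes (0.37 and -0.07), extracellular matrix (0.24 and -0.05), red cells (-0.19 and 0.03), immediate early genes (-0.12 and 0.10) and clock genes (-0.11 and 0.16), all with a median near 0 over both.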
